A study of Mus musculus with 24 samples.

Results

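The genes described here encode the nuclear subunits of the mitochondrial respiratory chain and the ATP synthase in mouse fibroblast lines under endoplasmic reticulum stress. Every probe set whose platform annotation gave a single symbol starting with Nduf, Uqcr, Atp5, Sdha to Sdhd, or Cox4 to Cox8 was taken. The rule used names and not values, but the list was chosen with earlier results of these data known. The rule gave 98 probe sets for 71 genes, of 12422 probe sets without controls; 20 of the genes had several probe sets. Complex I had 38 probe sets for 29 genes, complex II 4 for 4, complex III 7 for 7, complex IV 23 for 15 and complex V 22 for 14. The other 4 probe sets belonged to 2 complex I assembly factors, Ndufaf1 and Ndufaf4, which fit the rule by name but are not subunits of the finished enzyme. A further 10 probe sets carried several symbols and were left out.

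The respiratory chain passes electrons from NADH and succinate to oxygen and pumps protons out of the mitochondrial matrix, and the ATP synthase uses the returning protons to make ATP. Complex I (Nduf genes) oxidises NADH, complex II (Sdh) oxidises succinate within the citric acid cycle, complex III (Uqcr) transfers electrons to cytochrome c, complex IV (Cox) reduces oxygen, and complex V (Atp5) is the synthase. Several catalytic subunits are made from mitochondrial DNA, and the nuclear genes measured here supply the remainder, which are synthesised in the cytosol and imported. PERK is a kinase of the endoplasmic reticulum membrane that phosphorylates the translation factor eIF2alpha under stress, which lowers general protein synthesis and raises translation of the transcription factor ATF4.

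The 24 arrays fell into 12 groups of 2. Wild-type, ATF4-/- and PERK-/- fibroblast lines were compared without treatment and after tunicamycin (2 ug/ml), which blocks N-glycosylation and so stresses the endoplasmic reticulum. The time was 6 h for wild type and ATF4-/-, and the labels give none for PERK-/-. The other 12 arrays came from 2 lines that express Fv2E-PERK, a chimera of the PERK kinase that the compound AP20187 dimerises and so activates without stress in the endoplasmic reticulum. The SS line carries wild-type eIF2alpha, and the AA line carries a mutant eIF2alpha that lacks the phosphorylated serine. Each was untreated or exposed to AP20187, labelled as 2 nm, for 4 h or 8 h. The SS line was made in PERK-/- cells, because clones with high expression of the chimera could not be had in wild-type cells, and the labels do not say whether the AA line also lacks PERK. A difference between AA and SS that comes from eIF2alpha cannot be told apart from any other difference between those lines. Separate cultures are not stated for the 2 arrays of a group. A p-value draws on the spread between arrays within groups, pooled over all groups fitted together, and that spread may be technical.

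Each deposited value is a ratio in which 1 is the median of that probe set across the arrays, so it shows a relative level only and levels of different genes cannot be set against each other. For that reason the fibroblast identity of the lines could not be read from marker levels. The table has a floor of 0.01, reached by 22.6% to 25.6% of values on each tunicamycin array and by at most 0.105% on an Fv2E-PERK array, and the sets of 12 arrays were therefore fitted apart. Of the members, 78 were never at the floor on the tunicamycin arrays and were tested there, 13 were at it on some of those arrays and 7 on all 12. The 78 stand for 66 genes, and Atp5k, Cox6a2, Cox7a1, Ndufa12 and Ndufs4 had no tested probe set there. All 98 were above the floor on every Fv2E-PERK array. Changes are log2 differences of (ratio + 0.247) from limma with their standard errors (SE), and a member was called where the Benjamini-Hochberg adjusted p over all probe sets of the set was under 0.05. Counts of members at an unadjusted p under 0.05 are given without the share of all probe sets at that cut-off. They therefore do not show an excess among the members. As a check of the labels, the Atf4 probe set differed between untreated ATF4-/- and wild-type arrays (-1.34 ± 0.17, limma adjusted p = 0.0339). As a check of the treatments, Ddit3, a transcription factor gene induced by ER stress, changed by 3.64 ± 0.26 with tunicamycin in wild type (limma adjusted p = 0.00105), by 1.85 ± 0.20 after 4 h in SS (0.00259), and by 0.40 ± 0.26 with tunicamycin in PERK-/- (0.888).

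The stretch before the start of 4 member genes is shown because 3 of them, Uqcrh, Ndufb3 and Cox7b, were among the members lowest after eIF2alpha kinase activation, and the 4th, Atp5j, held matches to 3 motifs of factors that act on respiratory genes and was picked for that. Sequences are the 250 bases upstream of the annotated start in RefSeq on GRCm38.p6, written 5′ to 3′ on the gene's strand, with motif matches in capitals. Uqcrh lies at chr4:116075071-116075320, minus strand; Ndufb3 at chr1:58586147-58586396, plus strand; Cox7b at chrX:106015450-106015699, plus strand; the Atp5j window shown, the second of its 2 annotated starts, is at chr16:84834977-84835226, minus strand.
Uqcrh: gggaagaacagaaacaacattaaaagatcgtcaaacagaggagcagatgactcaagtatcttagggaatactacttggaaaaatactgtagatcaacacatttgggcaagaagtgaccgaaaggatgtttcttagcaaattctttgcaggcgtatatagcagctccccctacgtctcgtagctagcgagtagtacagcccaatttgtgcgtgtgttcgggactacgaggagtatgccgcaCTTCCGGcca
Ndufb3: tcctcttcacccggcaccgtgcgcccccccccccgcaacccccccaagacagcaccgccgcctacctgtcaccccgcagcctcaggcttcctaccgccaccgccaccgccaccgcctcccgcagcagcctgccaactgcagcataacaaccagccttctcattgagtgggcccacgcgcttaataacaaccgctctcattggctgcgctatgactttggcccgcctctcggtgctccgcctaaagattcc
Cox7b: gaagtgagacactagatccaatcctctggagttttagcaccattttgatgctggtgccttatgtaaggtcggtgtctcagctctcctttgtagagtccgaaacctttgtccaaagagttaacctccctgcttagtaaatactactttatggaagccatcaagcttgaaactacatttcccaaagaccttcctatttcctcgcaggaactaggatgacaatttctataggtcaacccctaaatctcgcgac
Atp5j: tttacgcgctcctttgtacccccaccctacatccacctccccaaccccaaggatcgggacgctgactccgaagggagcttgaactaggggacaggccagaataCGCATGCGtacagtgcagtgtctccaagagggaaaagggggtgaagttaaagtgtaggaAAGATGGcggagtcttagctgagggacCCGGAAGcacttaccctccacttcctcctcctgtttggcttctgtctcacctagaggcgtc
The capitals in Uqcrh mark a reverse-strand match to the ETS/GABP core CCGGAAG, and those in Atp5j mark, from left to right, the NRF1 core CGCATGCG, the YY1 site AAGATGG and the ETS/GABP core. No match to these or to the other motifs searched was present in the Ndufb3 and Cox7b windows. None was present either in the window of the first annotated Atp5j start, which is not shown. Windows were found for 58 of the 71 genes, 63 windows in all, and both strands were searched. The NRF1 core was in 11.1% of them, against 1.55% of 32851 windows of the same length, and the ETS/GABP core in 19% against 6.91%. The YY1 site was in 1.59% against 4.49%. The ATF4 element TGATGCAA was in 0% of member windows against 0.791%, and the ER stress element (CCAAT, 9 bases, CCACG) in 0% against 0.113%. These shares describe letters in a window and carry no test. The windows of other members below 0 at 4 h in SS are not shown, among them that of Atp5k, which held the NRF1 core.

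The first comparison asked what tunicamycin did to these genes in wild-type cells. Uqcrh, which encodes the hinge protein of complex III, and Ndufb3, an accessory subunit in the membrane arm of complex I, fell, and no member rose. Uqcrh read 1.06 and 0.733 on the untreated arrays and 0.196 and 0.256 after tunicamycin, so the treated mean was 25.2% of the untreated mean. Its change was -1.26 ± 0.22 (SE, limma adjusted p = 0.039). Ndufb3 read 1.11 and 1.09 untreated and 0.497 and 0.506 treated, a mean at 45.4% of untreated and a change of -0.85 ± 0.15 (limma adjusted p = 0.0397). The treated arrays lay under the untreated ones for both genes, with close agreement within each pair for Ndufb3. The 2 calls were of 78 tested members, where 0.162% of all 7387 probe sets were called lower. Neither call held when any 1 of the 4 arrays was left out, although the changes stayed between -1.47 and -1.06 for Uqcrh and between -0.86 and -0.84 for Ndufb3.

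Below the threshold, the members lay slightly to the low side in wild type. Their median change was -0.14, against 0.02 for all probe sets tested, and 52 of 78 were below 0. Both treated arrays were under both untreated ones for 28 of the 78, or 35.9%, against 18.4% of all probe sets. By complex, the medians were -0.12 for complex I, -0.30 for the 4 complex II subunits, 0.00 for complex III, -0.13 for complex IV and -0.20 for complex V. The list median was -0.06 without untreated array 1 and -0.25 without untreated array 2, so its size rested on which untreated array was used. None of 5 subunits fixed as examples of their complexes was called: Ndufv1, which binds NADH, differed by -0.11 ± 0.13; Sdha, the flavoprotein of complex II, by -0.27 ± 0.30; Uqcrc1, a core protein of complex III, by 0.08 ± 0.14; Cox5a by 0.03 ± 0.69; and Atp5a1, the alpha subunit of the synthase, by 0.10 ± 0.16.

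In ATF4-/- cells no member was called with tunicamycin, where 0.42% of all probe sets were. At the looser cut-off of an unadjusted p under 0.05 there were 9 lower and 1 higher member. The share of all probe sets at that cut-off is not given. Uqcrh read 0.785 and 0.939 untreated and 0.344 and 0.350 treated (-0.90 ± 0.22, limma adjusted p = 0.185). Ndufb3 read 1.25 and 1.29, then 0.701 and 0.707 (-0.67 ± 0.15, adjusted p = 0.146). The treated arrays of both genes lay under the untreated ones here too. The member median was -0.15, against 0.00 for all, with 60 of 78 below 0. Both treated arrays were lower for 38 members, or 48.7%, against 21.9% of all probe sets.

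In PERK-/- cells neither a member nor any other probe set was called (0% of 7387). At an unadjusted p under 0.05, 1 member was higher and 0 lower, with no share of all probe sets at that cut-off. Uqcrh read 1.20 and 1.67 untreated and 0.832 and 1.25 with tunicamycin, so its groups overlapped (-0.39 ± 0.22, limma adjusted p = 0.84). Ndufb3 read 1.10 and 1.37, then 0.958 and 1.23 (-0.15 ± 0.15, adjusted p = 0.959), also overlapping. The median of the 78 members was 0.00, that of all probe sets was 0.00, and 39 members lay on each side. Both treated arrays were lower for 9 members, or 11.5%, below the 14.1% of all probe sets.

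The difference between responses was tested directly and called for no member. For ATF4-/- minus wild type, 0% of all probe sets were called, the member median was -0.03 and 1 member had an unadjusted p under 0.05. For PERK-/- minus wild type, 0% were called as well, the median was 0.14 against -0.02 for all, and 5 members had an unadjusted p under 0.05, all of them higher. The share of all probe sets at that unadjusted cut-off is not given for either difference. The PERK-/- minus wild type median was 0.05 without untreated wild-type array 1 and 0.23 without array 2. The Uqcrh response differed by 0.87 ± 0.31 (limma adjusted p = 0.543) and the Ndufb3 response by 0.70 ± 0.21 (0.469) between PERK-/- and wild type. A call in wild type without one in ATF4-/- or PERK-/- therefore does not show that the responses differ. The tunicamycin time of the PERK-/- arrays is also not given.

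**Figure D1:**
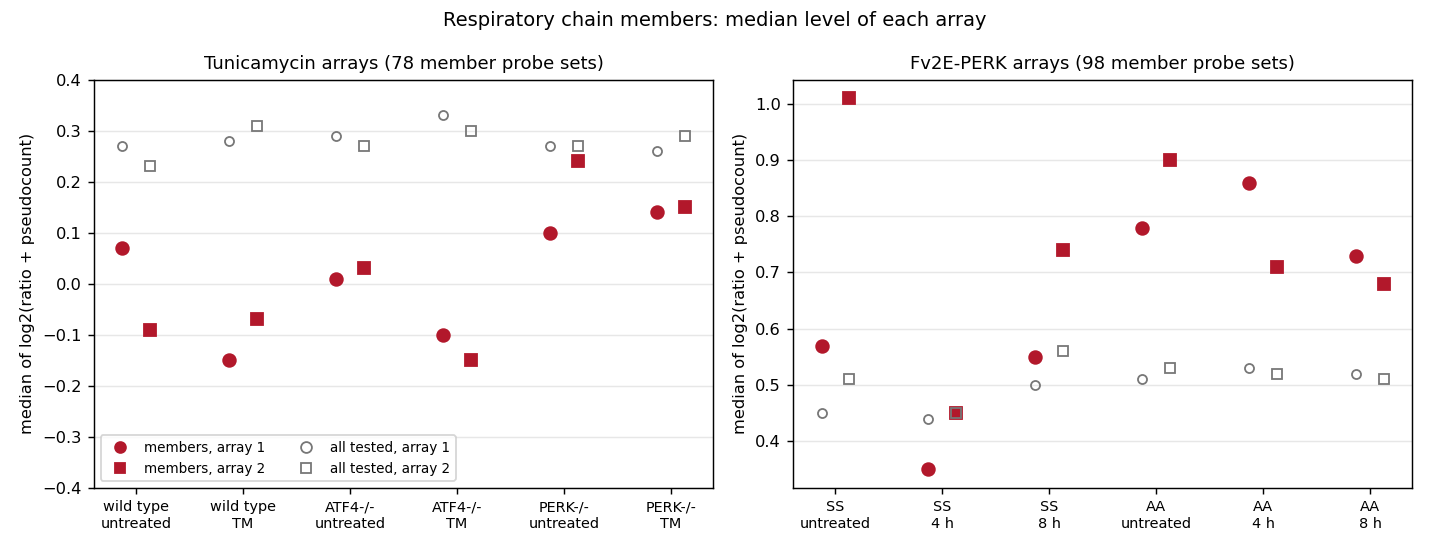
Median log2(ratio + 0.247) over the members (red) and over all probe sets tested (grey, open) on each of the 24 arrays, with circles for array 1 and squares for array 2 of a group; TM is tunicamycin, and the panels have different vertical axes. Untreated SS array 2 stands highest for the members, at 1.01 against 0.57 on its partner, and the SS arrays at 4 h stand lowest of that set, at 0.35 and 0.45.

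The Fv2E-PERK arrays show what activation of the kinase alone did to these genes. The untreated SS arrays, which serve as controls there, differed from each other. The median member stood at 0.57 on untreated SS array 1 and at 1.01 on array 2, while the median of all probe sets stood at 0.45 and 0.51, as the plot of array medians shows. The other 10 Fv2E-PERK arrays had member medians between 0.35 and 0.90. The typical member differed by 0.48 between the untreated SS arrays, against 0.29 for all probe sets, and by 0.17 to 0.25 between the arrays of each other Fv2E-PERK group. Whether array 2 or array 1 is nearer the usual untreated level was not tested. Values with either array left out follow for the members called with AP20187, the list and complex medians and the calls in the other gene lists; the remaining SS values rest on both arrays.

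After 4 h of AP20187 in SS cells, 5 members from complexes I to IV fell and 1 rose, of 98. The calls for all 12384 probe sets were 1.77% lower and 2.99% higher, so the share of members was above that background for lower calls and below it for higher ones. Uqcrh read 1.52 and 2.57 untreated and 0.596 and 0.661 at 4 h, a mean at 30.8% of untreated (-1.35 ± 0.23, limma adjusted p = 0.0164). Ndufb3 read 2.10 and 2.67, then 0.779 and 0.704, or 31.1% of untreated (-1.41 ± 0.29, adjusted p = 0.0331). These are the same 2 genes that fell with tunicamycin in wild type. In every case the treated arrays lay well under the untreated ones.

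The other 3 that fell were a further complex I subunit, a complex II subunit and a complex IV subunit. Cox7b, a small membrane subunit of cytochrome c oxidase, read 1.29 and 1.60 untreated and 0.649 and 0.532 at 4 h (-1.01 ± 0.15, limma adjusted p = 0.0112). Sdhc, a membrane anchor of complex II, read 1.54 and 2.03, then 0.786 and 0.867 (-0.91 ± 0.16, adjusted p = 0.018). Ndufa3, an accessory subunit of complex I, read 1.84 and 2.71, then 0.982 and 1.15 (-0.92 ± 0.20, adjusted p = 0.0378). All 3 were at 40.9% to 46.8% of their untreated mean. The second Ndufa3 probe set, 102097_f_at, changed by -0.47 ± 0.17 and was not called. Both Ndufa3 probe sets have the f suffix, which marks probes shared within a family of like sequences, so related transcripts may add to the signal.

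Cox8a, the ubiquitous isoform of subunit 8 of complex IV, was the member that rose. Its untreated SS arrays read 0.127 and 0.332, and those at 4 h 0.776 and 0.872, or 3.59-fold the untreated mean (1.20 ± 0.23, limma adjusted p = 0.0261). The groups did not overlap. This probe set was also unsteady elsewhere: untreated ATF4-/- arrays read 2.70 and 0.254, and untreated PERK-/- arrays 1.86 and 0.278.

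Leaving out untreated SS array 2 ended all 5 lower calls and kept Cox8a. The change of Uqcrh was then -1.01 ± 0.20 (limma adjusted p = 0.063), of Ndufb3 -1.25 ± 0.36 (0.154), of Cox7b -0.88 ± 0.17 (0.0621), of Sdhc -0.73 ± 0.16 (0.0834), of Ndufa3 -0.67 ± 0.20 (0.156) and of Cox8a 1.52 ± 0.21 (0.0315). Leaving out untreated array 1 instead kept 4 of those lower calls, all but Ndufb3 (-1.56 ± 0.36, adjusted p = 0.077), and ended that of Cox8a. Leaving out either 4 h array left 0 calls. All 5 genes stayed lower in each of these fits, and none of their treated values overlapped an untreated one.

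**Figure D2:**
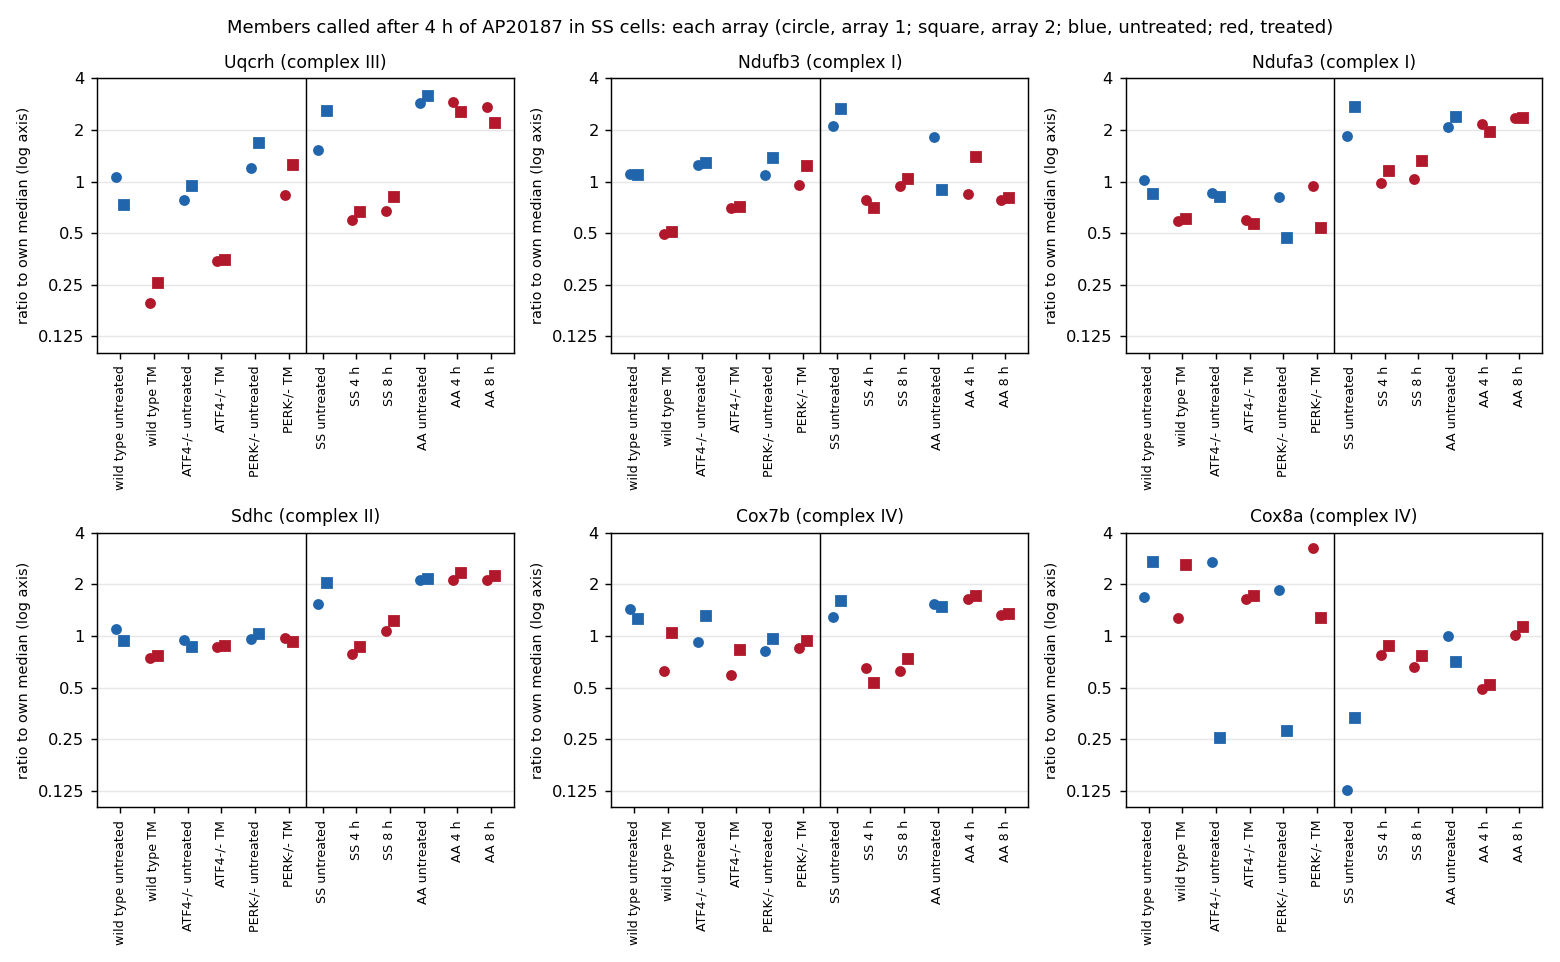
Ratio to the probe set's own median (log axis) of the 6 members called after 4 h of AP20187 in SS, on each of the 24 arrays; the vertical line parts the tunicamycin arrays (TM) from the Fv2E-PERK arrays. Uqcrh and Ndufb3 are low in treated wild-type cells and in treated SS cells, at 0.196 to 0.256 and 0.596 to 0.808 for Uqcrh, while Uqcrh stays between 2.21 and 3.14 in AA.

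Across the whole list at 4 h, 84 of 98 member probe sets lay below 0, with a median of -0.30 against -0.03 for all. With 1 probe set a gene the median of the 71 genes was -0.36, with 63 below 0. At an unadjusted p under 0.05, 28 members were lower and 1 was higher, with no share of all probe sets at that cut-off to set beside them. Both treated arrays were under both untreated ones for 43 members, or 43.9%, against 27.4% of all probe sets. Without untreated array 2 the median was -0.20, and without array 1 it was -0.52. Single-member values below 0 that were not called are part of this shift and are not separate findings.

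By complex, all 22 complex V probe sets lay below 0 (median -0.49), as did all 7 of complex III (-0.38) and all 4 of complex II (-0.42), and 34 of 38 of complex I did (-0.37). In complex IV, 14 of 23 were below 0, with a median of -0.09. Complex V reached from -1.29 to -0.04 with no call, and 8 of its probe sets had an unadjusted p under 0.05. Without untreated array 2 the medians were -0.16 for complex I, -0.34 for complex II, -0.08 for complex III, -0.09 for complex IV and -0.25 for complex V, where 20 of 22 were below 0. Without array 1 they were -0.54, -0.55, -0.68, 0.04 and -0.67 in the same order. The size of the shift in complexes I, III and V, and the direction in complex IV, thus depended on the untreated array used. The second Atp5g1 probe set, 161324_r_at, gave -1.01 ± 0.54 with untreated values of 2.42 and 10.4, whereas the first, 96032_at, gave -0.04 ± 0.23, so the members of that pair do not give the same size.

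At 8 h in SS, 4 of 98 members were lower and 2 higher, where 2.63% and 4.93% of all probe sets were called lower and higher. The share of members called lower was little above that background and the share called higher was below it. The calls are thus values of single genes and not a trait of the list. Cox7b read 0.628 and 0.737 (-0.86 ± 0.15, limma adjusted p = 0.0138), Uqcrh 0.678 and 0.808 (-1.18 ± 0.23, 0.0191) and Ndufa3 1.03 and 1.32 (-0.81 ± 0.20, 0.0452). The 4th was Uqcrb, a small subunit near the quinone site of complex III, which read 1.71 and 2.11 untreated and 0.988 and 1.23 at 8 h (-0.67 ± 0.17, 0.0472). Uqcrb, Cox7b, Uqcrh and Ndufa3 had treated arrays under both untreated ones. Ndufb3 (-1.08 ± 0.29, 0.0613) and Sdhc (-0.54 ± 0.16, 0.0817) were no longer called. The 8 h and 4 h arrays share their untreated controls, and the change from 4 h to 8 h was not tested.

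The member median at 8 h was -0.09 against 0.04 for all, with 62 of 98 below 0. Both 8 h arrays were under both untreated ones for 27 members, or 27.6%, against 22.5% of all. At this time the complex medians were -0.05 for complex I, -0.10 for complex II, -0.06 for complex III, -0.05 for complex IV and -0.18 for complex V, where 19 of 22 were below 0. Without untreated array 2 these medians were 0.08, -0.01, 0.24, -0.11 and -0.06, and without array 1 they were -0.20, -0.18, -0.36, -0.20 and -0.46. The list median was 0.02 without untreated array 2 and -0.32 without array 1, so its direction depended on that pair. Without array 2 the 4 lower calls were lost, with Uqcrh at -0.84 ± 0.20 (limma adjusted p = 0.0666) and Cox7b at -0.73 ± 0.17 (0.0655). Without array 1, Uqcrh (-1.51 ± 0.20, 0.0148), Cox7b (adjusted p = 0.0336) and Ndufa3 (-1.07 ± 0.20, 0.042) kept their calls and Uqcrb did not (-0.80 ± 0.19, 0.0758). With either 8 h array left out no member was called.

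The higher members at 8 h were both complex IV subunits. Cox8a read 0.656 and 0.762 (1.04 ± 0.23, limma adjusted p = 0.0316) and stayed called without untreated array 2 but not without array 1 (0.72 ± 0.21, 0.127). Cox6a2, the heart and skeletal muscle isoform of subunit 6a, read 10.8 and 14.6 untreated. It then read 38.4 and 37.3 (4 h) and 77.5 and 108 (8 h). Its 8 h mean was 7.33-fold the untreated mean (2.85 ± 0.70, adjusted p = 0.0464), and its 4 h change of 1.58 ± 0.70 was not called (0.255). Its values in AA lay between 2.00 and 4.99, and it was at the floor on all 12 tunicamycin arrays. No leave-one-out fit kept the Cox6a2 call, with changes from 2.61 to 3.08. It was also lost with the smaller pseudocount (limma adjusted p = 0.0687), median centring (0.0501), quantile normalization (0.0769) and the replicate block (0.0655), and held without the floor filter (0.0488). Beside it, of 6 muscle marker genes at 8 h, Mb, the oxygen store myoglobin, rose (2.64 ± 0.43, adjusted p = 0.0114) and Actc1, cardiac actin, fell (-0.75 ± 0.19, 0.0487), while Myog, Myod1, Ckm and Des were not called. Mb was not called without untreated array 2 (2.23 ± 0.51, 0.0626), and Actc1 was not with either left out. Their part in the result was not tested.

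**Figure D3:**
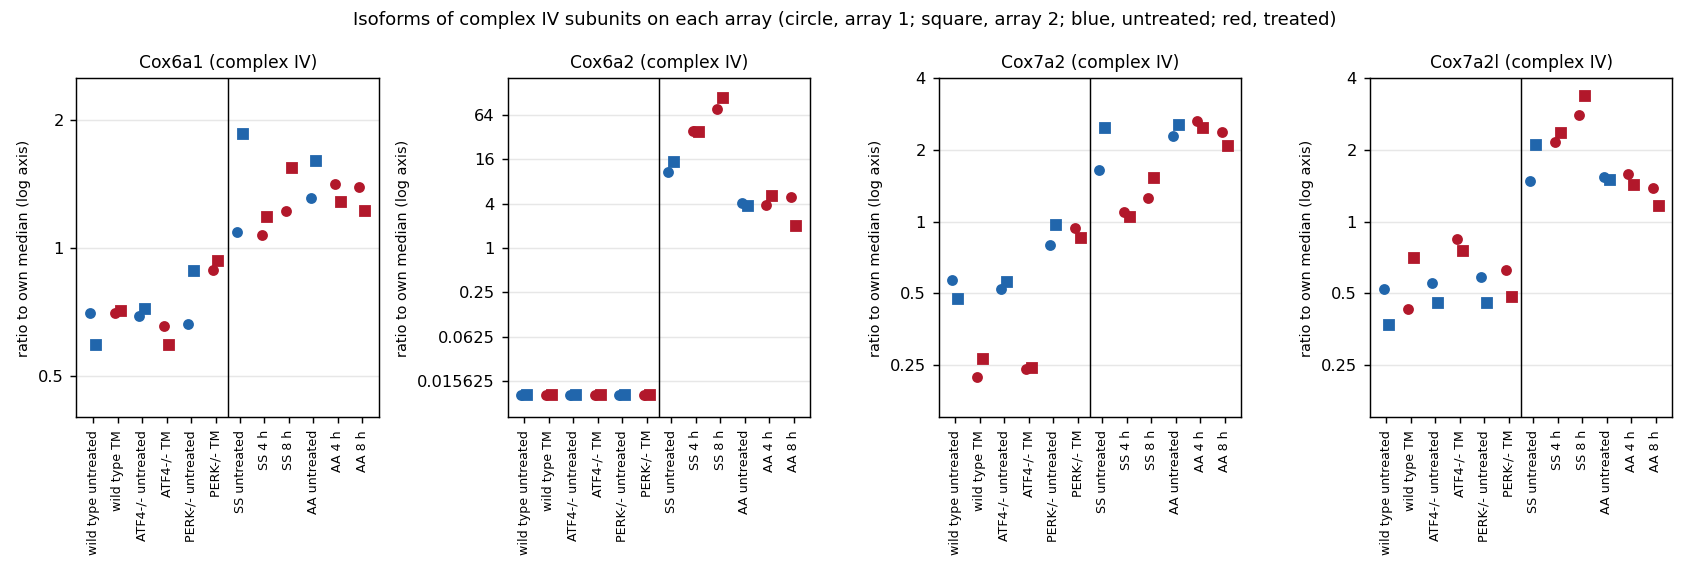
Ratio to own median (log axis, different ranges) of Cox6a1, Cox6a2, Cox7a2 and Cox7a2l on each array. Cox6a2 is at 10.8 and 14.6 in untreated SS cells and 77.5 and 108 after 8 h, and Cox7a2 with tunicamycin is at 0.221 and 0.264 in wild type, 0.240 and 0.241 in ATF4-/- and 0.938 and 0.853 in PERK-/- cells, with no call in any line.

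Isoform pairs allowed a closer look at complex IV and the c subunit of the synthase. Cox6a1, the ubiquitous partner of Cox6a2, read 1.09 and 1.85 in untreated SS and 1.22 and 1.54 at 8 h (-0.05 ± 0.23, not called). Cox7a2 read 0.566 and 0.472 in untreated wild type and 0.221 and 0.264 with tunicamycin (-0.64 ± 0.15, limma adjusted p = 0.114). In ATF4-/- it read 0.519 and 0.557, then 0.240 and 0.241 (-0.69 ± 0.15, 0.15). Treated and untreated arrays did not overlap in either line, and in PERK-/- they did, at 0.798 and 0.963 untreated against 0.938 and 0.853 treated. The difference between the PERK-/- and wild-type responses was 0.67 ± 0.22 and was not called (limma adjusted p = 0.513). In SS it read 1.65 and 2.47 untreated and 1.10 and 1.04 at 4 h (-0.79 ± 0.20, 0.0595), also without overlap and without a call. Without untreated array 1 it was called (-1.05 ± 0.19, 0.0444), and without array 2 it was not (-0.53 ± 0.19, 0.226).

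Cox7a2l, a relative of Cox7a2 that takes part in joining complexes III and IV into supercomplexes, read the other way in SS. Its arrays read 1.48 and 2.10 before AP20187, then 2.16 and 2.36 (4 h), then 2.80 and 3.37 (8 h; 0.72 ± 0.19, limma adjusted p = 0.0551), so the groups did not overlap and the call was missed. Without untreated array 2 it was called at 8 h (0.94 ± 0.19, 0.0474), and without array 1 it was not (0.50 ± 0.19, 0.217). Cox7a1, the muscle isoform, changed by -1.18 ± 0.72 at 4 h and 0.22 ± 0.72 at 8 h with wide scatter. Cox4i1 changed by 0.06 ± 0.21 at 4 h on 93788_at and by -0.28 ± 0.27 on 102124_f_at. Cox6b1 changed by -0.09 ± 0.30, Cox6b2 by 0.20 ± 0.33, Cox8b by -0.17 ± 0.52, Atp5g1 by -0.04 ± 0.23 and Atp5g2 by -0.29 ± 0.28 at 4 h in SS, none called. On a second Atp5g2 probe set, 102134_f_at, the 4 h change was -0.01 ± 0.18 in AA and the AA minus SS difference 0.50 ± 0.25. Its change in SS thus lay further below 0 than that of the first, also without a call. Cox4i2 and Atp5g3 were not analysed here.

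In AA cells, whose eIF2alpha cannot be phosphorylated at the regulated site, AP20187 gave no called member at 4 h or 8 h, and 0% of all probe sets were called at 4 h and 0% at 8 h. At an unadjusted p under 0.05, 2 members were higher and 3 lower at 4 h, and 1 was higher and 0 lower at 8 h. No share of all probe sets at that looser cut-off is given beside these counts. Uqcrh read 2.86 and 3.14 without AP20187, 2.90 and 2.54 (4 h) and 2.73 and 2.21 (8 h; -0.13 ± 0.23 and -0.26 ± 0.23). Cox7b read 1.53 and 1.48 without AP20187, 1.65 and 1.71 (4 h) and 1.33 and 1.34 (8 h; 0.14 ± 0.15 and -0.15 ± 0.15). Sdhc stood between 2.12 and 2.32 on all 6 AA arrays. Ndufb3 was unsteady, at 1.81 and 0.898 untreated. It changed by -0.20 ± 0.29 at 4 h, with overlap, and by -0.56 ± 0.29 at 8 h, neither called. Both of its 8 h arrays lay under both untreated ones, with a mean at 58.5% of untreated, so a fall in AA was not absent for this gene.

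The AA list medians were -0.02 at 4 h, against 0.00 for all, and -0.07 at 8 h, against 0.00. Both treated arrays were lower for 15 members at 4 h, or 15.3%, against 15.1% of all probe sets. At 8 h this held for 27 members, or 27.6%, against 16.7%. The complex medians at 4 h lay between -0.05 and 0.04.

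**Figure D4:**
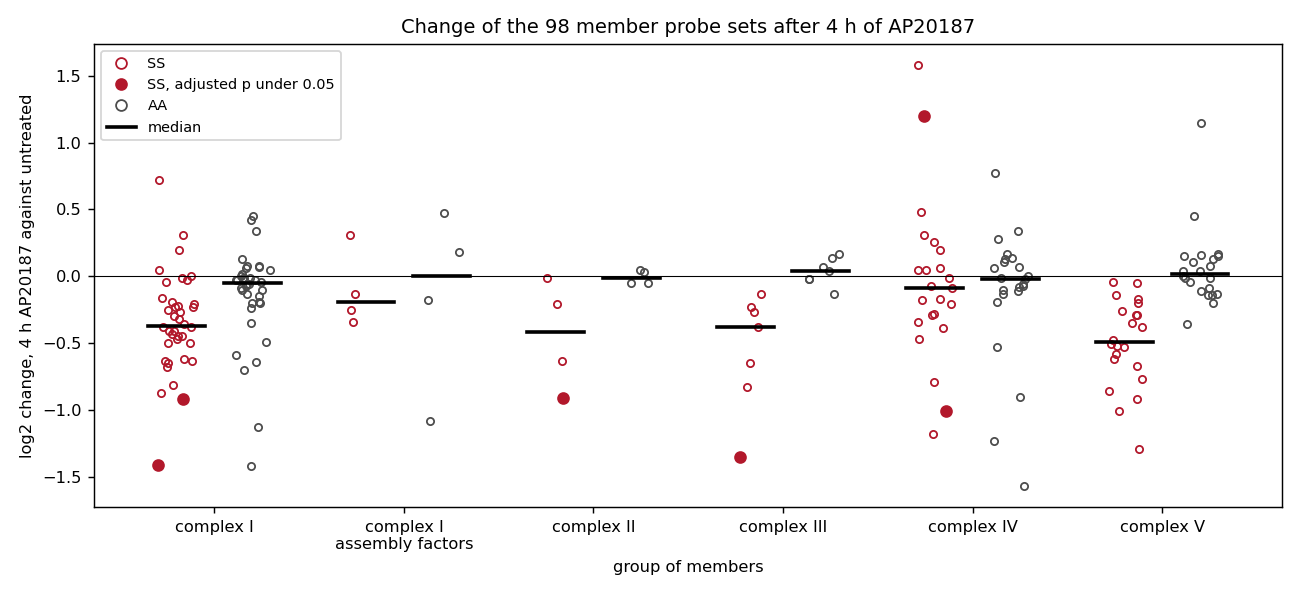
Log2 change after 4 h of AP20187 of each of the 98 member probe sets, in SS (red) and AA (grey), by complex; filled points have a limma adjusted p under 0.05 and black bars are medians. All 22 complex V points in SS lie below 0 with a median of -0.49 (-0.25 without untreated SS array 2), and the AA medians of the 5 complexes lie between -0.05 and 0.04.

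The difference of the AP20187 responses was tested directly and no member passed. At 4 h the AA minus SS median was 0.27 against 0.01 for all, and 0.484% of all probe sets were called. At the looser cut-off of an unadjusted p under 0.05, 15 members were higher and 2 lower. The share of all probe sets at that cut-off is not given. The difference was 1.15 ± 0.21 for Cox7b (limma adjusted p = 0.0699), 0.96 ± 0.22 for Sdhc (0.12), 1.22 ± 0.32 for Uqcrh (0.165), 1.21 ± 0.41 for Ndufb3 (0.27) and -1.74 ± 0.32 for Cox8a (0.0699). At 8 h the median was 0.09, and 2.08% of all probe sets but no member were called. At an unadjusted p under 0.05, 6 members were higher and 5 lower, again without the share of all probe sets. That the calls stand in SS and not in AA is therefore not a shown difference for any single member. The 4 h median was 0.13 without untreated SS array 2 and 0.49 without array 1. The 8 h median was -0.06 without array 2 and 0.26 without array 1, so its direction turned.

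The tunicamycin response in wild type and the 4 h response in SS share no array, so their values can be set side by side. Of the 78 members tested in both, 49 were below 0 in both, or 62.8%, against 29.1% of all probe sets. Members lay to the low side in each comparison alone, which by itself raises that joint share. The share therefore does not show agreement gene by gene. Both genes called lower with tunicamycin, Uqcrh and Ndufb3, were among the 5 called lower in SS. Across the 78 member probe sets the changes had a Pearson r of 0.50, and across all probe sets tested in both, 0.24. For 4 h in SS and 4 h in AA, 50% of 98 members were below 0 in both, against 27.1% of all. The r of members there was -0.11. These are correlations across probe sets, which are not independent replicates. 

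**Figure D5:**
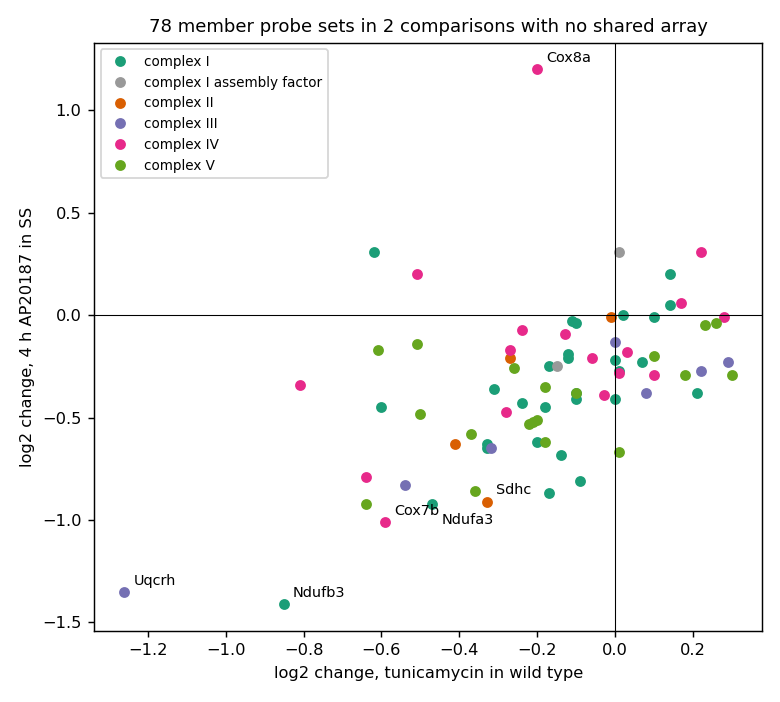
Log2 change of 78 member probe sets with tunicamycin in wild type (horizontal) and after 4 h of AP20187 in SS (vertical), coloured by complex, with the members called in either comparison named. Uqcrh and Ndufb3 lie to the lower left, at -1.26 and -1.35, and at -0.85 and -1.41.

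Members also varied together between arrays. The mean pairwise correlation of member probe sets over the 12 tunicamycin arrays was 0.192, against 0.004 for all probe sets tested. Over the 12 Fv2E-PERK arrays it was 0.184 against 0.012, over the 6 SS arrays alone 0.258 against 0.014, and over the 6 AA arrays alone 0.057 against 0.002. The SS arrays include untreated array 2, with its high member median of 1.01, and the SS correlation without it is not given. The arrays share treatment and scaling, and several probe sets share a gene, so these values are descriptions.

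Untreated lines differed in a few members. In untreated PERK-/- against wild type, Ndufa6, a complex I accessory subunit, was higher, at 1.03 and 0.966 against 0.391 and 0.214, or 3.31-fold (1.20 ± 0.21, limma adjusted p = 0.0294). It was the 1 called member, where 0.352% of all probe sets were called higher, and it was lost in 3 of the 4 leave-one-out fits. The member median was 0.14 against 0.01 for all; it was 0.07 without untreated wild-type array 2 and 0.20 without untreated PERK-/- array 1. In the same comparison 4 of 8 tested fibroblast marker genes (Col1a1, Col1a2, Col3a1 and Pdgfrb) were lower, and their part in the result was not tested. In untreated ATF4-/- against wild type no member was called, with 0.0948% of all probe sets called, and the member median was 0.01 against 0.02. At an unadjusted p under 0.05, 1 member was higher and 1 lower, with no share of all probe sets at that cut-off.

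Untreated AA and SS cells differed in 8 members, 5 higher and 3 lower in AA, where 5.73% and 6.82% of all probe sets were called higher and lower. The share of members called is no larger than that background. Sdha read 2.48 and 2.00 in AA and 1.20 and 1.22 in SS (0.76 ± 0.17, limma adjusted p = 0.023). Ndufs4, a complex I subunit needed for its late assembly, read 2.65 and 2.70 against 1.21 and 1.39 (0.92 ± 0.21, 0.0256), and Cox8a 0.994 and 0.709 against 0.127 and 0.332 (1.23 ± 0.23, 0.0112). In AA, Ndufa6 was lower, at 1.31 and 1.24 against 2.42 and 2.83 (-0.91 ± 0.16, 0.00793), and so was Ndufc1, at 1.50 and 1.13 against 2.33 and 2.80 (-0.86 ± 0.20, 0.0255). None of these groups overlapped.

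The other 3 called members had further probe sets that did not give the same result. Ndufb2 was higher in AA on 162473_r_at (1.99 ± 0.29, limma adjusted p = 0.00376), while its other probe sets gave 0.52, -0.08 and -0.30. Cox6b2, the testis isoform, was higher on 97351_i_at (1.68 ± 0.37, 0.0233), with 0.41 and 0.20 on the others. Cox6c was lower on 100550_f_at (-0.69 ± 0.18, 0.0388), with 0.07 and -0.13 on the others. Of the 8, Ndufb2 stayed called in all 4 leave-one-out fits. The count was 6 without untreated SS array 1, 5 without untreated SS array 2, 4 without untreated AA array 1 and 2 without untreated AA array 2.

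Other mitochondrial and metabolic genes gave few calls beside these. Of all probe sets, 2.99% were called higher and 1.77% lower at 4 h in SS, and 4.93% and 2.63% at 8 h. For untreated AA against SS the shares were 5.73% and 6.82%. No excess over these shares is claimed for the short lists of mitochondrial and metabolic genes. Among 12 citric acid cycle genes, Dld, a shared dehydrogenase subunit, rose at 8 h in SS (0.85 ± 0.20, limma adjusted p = 0.0385), and Cs, citrate synthase, was higher in untreated AA than in SS (0.49 ± 0.13, 0.0454). Of 10 genes of electron carriers and assembly, Lrpprc, which stabilises mitochondrial mRNAs, rose at 8 h (0.78 ± 0.18, 0.0372), and Coq3, of ubiquinone synthesis, was higher in AA (1.03 ± 0.18, 0.0087). Of 8 chaperones and proteases, Hspa9, the mitochondrial Hsp70, rose at 8 h (0.95 ± 0.16, 0.0131). No called gene of these lists fell. Without untreated SS array 1 none of the 3 rises at 8 h was called, and without array 2 only that of Hspa9 was (1.09 ± 0.19, limma adjusted p = 0.0321). The higher Cs was not called with either array left out, and Coq3 not without array 1.

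Of 9 regulators of mitochondrial biogenesis, Gabpb1, a subunit of the GABP factor, rose at 4 h in SS (0.99 ± 0.19, limma adjusted p = 0.025). Yy1 rose at 8 h (0.61 ± 0.15, 0.0442) and was higher in untreated AA than SS (1.04 ± 0.15, 0.00335). The Gabpb1 and Yy1 rises in SS were not called with either untreated array left out, and the Yy1 difference between the lines was called without each. None of the 10 mitochondrial carriers and porins was called in any comparison, though all 10 lay below 0 at 4 h in SS, with a median of -0.23 (-0.11 without untreated array 2 and -0.40 without array 1). Of 12 glycolysis genes, Hk2, a hexokinase, was lower in untreated AA than SS (-1.50 ± 0.21, 0.00314) and none was called with treatment. The glycolysis median at 4 h in SS was -0.31, with 11 of 12 below 0, beside -0.30 for the respiratory chain members; it was -0.18 without untreated array 2 and -0.59 without array 1. At 4 h in SS 4 of 10 fibroblast markers fell (Col1a2, Col3a1, Thy1 and S100a4), and at 8 h these and Col1a1 fell, with changes at 8 h from -2.20 for S100a4 to -1.21 for Thy1. Of the 4 h calls only S100a4 held without each untreated array, and of the 8 h calls all but Thy1 did. Their part in the member changes was not tested.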

How the data were processed

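Oligonucleotide arrays measured transcripts of the mouse lines, and the deposited table holds, per the values themselves, a linear ratio for each probe set: 91.46% of probe sets have a median within 0.01 of 1 over the 24 arrays, and the lowest value is 0.01. How the authors corrected and scaled the scanned signal before that is not known from the labels or the table. Gene names came from the platform annotation (10833 probe sets with 1 symbol, 396 with several, 1193 with none), and all 98 members matched a RefSeq gene ID.

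Values were tested as log2(ratio + 0.247), where 0.247 is the table median over 4, with limma 3.58.1 (R 4.3.3; lmFit and eBayes with a trend) on group means, separately for the 12 tunicamycin and the 12 Fv2E-PERK arrays, which leaves 6 residual degrees of freedom each. Probe sets at the floor on any array of a set were left out, leaving 7387 and 12384. The fit was tested on simulated data. Up to 4 called members in each direction, 1 fixed subunit a complex and the isoform groups were named with values; other genes were named after their values were seen. Members and lists were chosen with earlier results of these data known. The number of arrays limits the precision. Replicate numbers did not pair the arrays: same-numbered arrays deviated together with correlations from -0.194 to 0.207. Alternatives were a smaller pseudocount (0.0617), no filter, 1 fit to 24 arrays, median centring, quantile normalization, the replicate block and leaving out each array.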

Additional observations from a re-analysis of the deposited data

How the results depend on the processing

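Limits are the 2 arrays of a group and the spread of the untreated SS pair. Of the 23 called member changes, 0 reversed in any alternative. They kept their call in 115 of 134 fits with another setting and in 22 of 92 that left out an array; 1 (Ndufb2, untreated AA against SS) kept it in every leave-one-out fit. A leave-one-out fit has 1 array in an arm, assumed to vary like the others. The list medians moved by over 1 SD between arrays in 17 of 156 fits.

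Counts of called members changed by more than 1.5 times as follows; the cause was not tested. For tunicamycin in wild type the 2 calls became 0 without the floor filter and 1 (Uqcrh) with quantile normalization, and 0 to 0 in the leave-one-out fits. In ATF4-/- the 0 calls became 2 lower (Cox7a2 and Atp5mpl) with quantile normalization. For untreated PERK-/- against wild type the 1 call became 0 without the filter, 2 with quantile normalization (Ndufa6 and Ndufb8) and 0 to 1 with an array left out. With all 24 arrays in 1 fit, 4 h in SS gave 14 lower members against 5 lower and 1 higher. In that fit 8 h in SS gave 10 against 6, untreated AA against SS gave 5 against 8, and the 4 h difference AA minus SS gave 1 (Sdhc) against 0. It tested only the 78 members and 7369 probe sets above the floor on all 24 arrays, against 98 and 12384, with more residual degrees of freedom. The share of all probe sets called in it is not given, so these counts are not like for like. With an array left out, counts were 0 to 6 for 4 h in SS, 0 to 4 for 8 h in SS, 2 to 6 for untreated AA against SS and 0 to 1 (Cox5a) for the 8 h difference AA minus SS.

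With the replicate number as a block, which is no pairing here, the counts were 2 for tunicamycin in wild type, 1 for untreated PERK-/- against wild type, 5 and 4 for SS at 4 h and 8 h, and 7 for untreated AA against SS, and 0 elsewhere.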
